A study of Homo sapiens with 5 samples.

Results

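Zinc finger genes with numbered ZNF symbols that lie outside chromosome 19 were followed through the loss of CFIm59 and of CFIm68 in HEK293T cells. Members were taken by symbol (ZNF followed by a number), by a poly(A) site off chromosome 19, and by 50 or more reads summed over all sites of the gene and the 5 libraries. This gave 182 genes, of 233 such zinc finger genes with any listed site, and of 26270 genes with 1 or more reads in the whole series. The genes were thus selected on their summed read counts, and these totals are a description: ZNF25 with 51 reads and ZNF658 with 52 lay just inside the limit, and ZNF2 and ZNF341 with 49 reads each lay just outside. The rule goes by name, and it therefore takes in ZNF259 and ZNF720, which are now named ZPR1 and KRABD5. It also takes in 2 transcribed pseudogenes, ZNF271 and ZNF767. The study measured poly(A) site use by sequencing the 3′ ends of RNA, in 1 library of wild type control HEK293T, a human embryonic kidney line, and in knockout lines made from it with CRISPR/Cas9. There were 2 CFIm59 knockout (KO) lines and 2 CFIm68 KO lines, each read in 1 library, and all cells were grown in the same serum medium. The sources do not state whether a line is a single clone. The spread behind each p-value is therefore that between lines of 1 genotype, and the lone control was assumed to vary like them. The tests also share this spread across genes. A p-value thus rests only in part on how far the lines differ in its own gene. In such bulk RNA, fewer cells that express a gene and less RNA per cell cannot be told apart. Intervals and limits given for single libraries cover counting error only.

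Zinc finger proteins of this large family bind DNA through rows of short finger modules, each folded around a zinc ion. Many carry a KRAB domain, which recruits the scaffold protein TRIM28 and through it enzymes that lay down repressive histone methylation, and many of these silence transposable elements. Others are activators, corepressors or proteins with roles in splicing and mitosis. The cleavage factor CFIm binds UGUA motifs upstream of poly(A) sites and helps choose where an mRNA is cut and polyadenylated; its small subunit NUDT21 pairs with a large subunit, either CFIm68 (gene CPSF6) or CFIm59 (gene CPSF7). A gene with a proximal and a distal site in its last exon can so end in a short or a long 3′ end.

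The promoters of 4 members are shown because pairs of genes on 1 chromosome moved the same way without CFIm59: ZNF24 and ZNF397 fell on chromosome 18, and ZNF483 and ZNF510 rose on chromosome 9. The sequences are from RefSeq (GRCh38.p14, entries for 153 of the 182 genes), run from 250 bases before to 50 after the start of the gene, and read 5′ to 3′ on its strand. Capitals mark the CCAAT box, the GC box with letters GGGCGG and the TATA box with letters TATAAA, searched on both strands.
ZNF24 (chr18:35344371-35344670, minus strand): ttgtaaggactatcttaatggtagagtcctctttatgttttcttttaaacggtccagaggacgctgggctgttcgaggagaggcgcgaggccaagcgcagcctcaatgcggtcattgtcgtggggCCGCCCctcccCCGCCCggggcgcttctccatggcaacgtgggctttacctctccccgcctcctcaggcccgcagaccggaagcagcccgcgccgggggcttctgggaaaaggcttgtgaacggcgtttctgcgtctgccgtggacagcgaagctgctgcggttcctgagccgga
ZNF397 (chr18:35240784-35241083, plus strand): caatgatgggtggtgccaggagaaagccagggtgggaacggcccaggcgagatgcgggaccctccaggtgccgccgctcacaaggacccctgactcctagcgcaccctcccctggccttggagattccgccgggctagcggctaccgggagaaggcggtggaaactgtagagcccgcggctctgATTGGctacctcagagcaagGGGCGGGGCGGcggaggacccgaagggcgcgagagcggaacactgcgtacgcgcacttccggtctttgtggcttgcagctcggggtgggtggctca
ZNF483 (chr9:111524929-111525228, plus strand): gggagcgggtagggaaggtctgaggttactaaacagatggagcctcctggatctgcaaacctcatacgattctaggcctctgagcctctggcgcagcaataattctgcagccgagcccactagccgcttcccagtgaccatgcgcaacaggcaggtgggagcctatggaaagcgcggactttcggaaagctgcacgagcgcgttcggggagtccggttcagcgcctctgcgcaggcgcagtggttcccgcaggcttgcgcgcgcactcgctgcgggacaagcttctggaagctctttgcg
ZNF510 (chr9:96778038-96778337, minus strand): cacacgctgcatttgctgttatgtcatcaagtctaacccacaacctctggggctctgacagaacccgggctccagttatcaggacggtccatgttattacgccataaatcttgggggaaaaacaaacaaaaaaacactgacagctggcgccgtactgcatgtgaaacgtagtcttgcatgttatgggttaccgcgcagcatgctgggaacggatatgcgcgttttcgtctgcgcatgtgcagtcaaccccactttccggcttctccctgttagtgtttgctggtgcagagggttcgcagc
ZNF24 held 2 GGGCGG matches, and ZNF397 held 1 CCAAT match and 2 GGGCGG matches, which overlap each other. The promoters of ZNF483 and ZNF510 held none of the 3 motifs. Over 35116 RefSeq promoters of the same length, 34.6% held CCAAT, 45.0% held GGGCGG and 11.5% held TATAAA. The CG pairs numbered 26 in ZNF24, 25 in ZNF397, 24 in ZNF483 and 16 in ZNF510, beside a median of 14 over all promoters.

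Total reads per library ranged from 1673687 to 2924266, and the 182 genes took between 0.435% and 0.548% of them. CPSF6 stood at 120 CPM (the usual depth-scaled read count, here with TMM library factors) in the control and 46.8 ± 1.58 (SD, n = 2) in the CFIm68 KO lines, while CPSF7 had a control level of 59.8 CPM and one of 62.0 ± 9.15 in the CFIm59 KO lines. The labels do not say where the genes were cut, so reads at a 3′ end do not check the knockout. For the cell type markers, CPM was scaled to total reads without TMM factors. All 12 HEK293T markers had reads, with summed levels of 968 to 1443 CPM per library. Summed markers of fibroblasts ranged from 8.96 to 18.2 CPM (5 of 6 with reads, COL1A2 at 0), those of blood cells from 0.597 to 7.70 (6 of 6 with reads), and those of other epithelia from 11.6 to 56.8 (3 of 5 with reads, KRT5 and KRT14 at 0). The epithelial sum was highest in CFIm59 KO line 1 at 56.8 CPM and 21.3 or lower in the other libraries; its part in the results was not tested.

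The zinc finger genes were mostly low. Their median mean level was 17.3 CPM, beside 22.3 CPM over the 14636 genes tested for expression, with a range from 4.30 to 386 CPM. The median gene had 206 reads over the 5 libraries and 10 sites with reads; 36 genes had under 100 reads and 8 had over 1000. ZNF703, a transcriptional corepressor, held the most reads (4581), followed by ZNF207, a mitotic protein also called BuGZ (2128), and ZNF664 (1670). Next came ZNF503, the paralogue of ZNF703 (1599), ZNF24, a SCAN domain factor (1395), and ZNF711, an X-linked regulator of neurodevelopment (1383). These 6 genes held 22.1% of all reads of the group. Only ZNF595 was without a read in any library, in CFIm59 KO line 1. All 182 passed the filter on low counts, which is no result since the rule already asked for reads.

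Loss of CFIm59 moved zinc finger genes in both directions. Against the control, 12 of 182 rose and 10 fell (quasi-likelihood test of edgeR, p-values adjusted over all 14636 genes by the Benjamini-Hochberg method, threshold 0.05). Of all genes tested, 6.98% rose and 6.87% fell, so both shares among the zinc finger genes, 6.59% and 5.49%, lay near the background. The median log2 difference was 0.12 over the zinc finger genes and 0.02 over all genes.

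ZNF483 rose most among the named genes, by a log2 change of 2.79 ± 0.40 (SE; edgeR adjusted p = 1.21e-06). Its control level was 6.39 CPM, with levels of 52.8 and 37.3 CPM in the CFIm59 KO lines, and at 14.2 and 12.9 CPM in the CFIm68 KO lines. Both CFIm59 KO lines were above every other library. ZNF711 stood at 79.3 CPM in the control, at 192 and 205 CPM in the CFIm59 KO lines, and at 69.2 and 70.6 CPM in the CFIm68 KO lines. Its rise of 1.32 ± 0.26 (SE) on the log2 scale (edgeR adjusted p = 0.000278) rested on 211 to 494 reads in these 3 libraries, and the CFIm59 KO lines did not overlap the rest.

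ZNF532, which like ZNF592 binds the chromatin reader ZMYND8, stood at 4.51 CPM in the control, at 21.6 and 17.8 CPM in the CFIm59 KO lines, and at 3.82 and 4 CPM in the CFIm68 KO lines. ZNF510 stood at 5.26 CPM in the control, at 25.2 and 20.7 CPM in the CFIm59 KO lines, and at 4.17 and 7.10 CPM in the CFIm68 KO lines. ZNF883 stood at 8.65 CPM in the control, at 38.4 and 19.9 CPM in the CFIm59 KO lines, and at 4.87 and 4.88 CPM in the CFIm68 KO lines. In each of these 3 genes the CFIm59 KO lines were above all other libraries, with log2 changes against the control of 2.1, 2.1 and 1.71 (edgeR adjusted p = 0.00207, 0.00117 and 0.00386). ZNF618, ZNF232 and ZNF48 rose by 1.28, 1.18 and 1.13. ZNF462, a gene of neurodevelopment, rose by 2.48 from 7 control reads (2.63 CPM) to 15.0 ± 0.0685 CPM (SD, n = 2), and was named after its values were seen, since its mean count was under the limit of 20 set for named genes. The remaining 3 that rose were ZNF10, from 3.01 to 10.2 ± 0.823 CPM, ZNF629, from 21.8 to 44.5 ± 8.57 CPM, and ZNF771, from 53.8 to 98.4 ± 8.44 CPM.

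Some of these rises depended on the tool or on 1 line. DESeq2 gave 2 higher and 2 lower genes in place of 12 and 10. ZNF483 and ZNF711 passed with DESeq2 too, whereas ZNF510, ZNF532, ZNF883, ZNF618, ZNF232 and ZNF48 did not (DESeq2 adjusted p from 0.0819 to 0.302). Without CFIm59 KO line 1, the edgeR adjusted p was 0.117 for ZNF883, 0.166 for ZNF618 and 0.0795 for ZNF48. Without CFIm59 KO line 2 it was 0.166 for ZNF232. Leaving out either line gave 8 higher genes, and gave 6 (without line 1) or 5 (without line 2) lower ones.

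Of the genes that fell without CFIm59, ZNF24 and ZNF271 were the firmest. ZNF24 had 372 reads in the control (140 CPM), 92 in each CFIm59 KO line (55.2 and 38.1 CPM), and 529 and 310 in the CFIm68 KO lines (184 and 138 CPM). ZNF271, a transcribed pseudogene, stood at 66.9 CPM in the control, at 28.2 and 20.3 CPM in the CFIm59 KO lines, and at 74.4 and 72.4 CPM in the CFIm68 KO lines. For both, the CFIm59 KO lines lay below every other library, with log2 changes of -1.60 ± 0.26 and -1.49 ± 0.28 (SE; edgeR adjusted p = 1.57e-05 and 0.00016), and both passed under all alternatives run. ZNF397, a SCAN domain gene beside them, had 29.0 CPM in control cells and 13.3 ± 0.684 CPM (SD, n = 2) without CFIm59, a log2 change of -1.12 (edgeR adjusted p = 0.0222). Its call was lost without CFIm59 KO line 1 (adjusted p = 0.0529), without line 2 (0.105), and with last exon sites only (0.694). In the control 62 of its 77 reads stood at a site classed as intron.

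These 3 genes lie near each other on chromosome 18, with ZSCAN30 between ZNF397 and ZNF271, and with main sites at 32829767 (ZNF397), 32888885 (ZNF271) and 32912191 (ZNF24) in the hg19 positions as deposited, and their neighbours fell as well. Of 10 other genes within 1 Mb of ZNF24 with a mean of 10 or more reads, 9 were lower in the CFIm59 KO lines, with a median log2 change of -1.27. Among these were INO80C at -1.54 (edgeR adjusted p = 0.000434), C18orf21 at -1.73 (2.17e-05), ELP2 at -1.42 (0.000102) and the zinc finger gene ZSCAN30 at -1.52 (0.00064). Within 5 Mb, 14 of 26 other genes were lower and the median was -0.88, while 6.87% of all genes tested were lower. Over the 222 genes of chromosome 18 the median was 0.03, and in the CFIm68 KO lines the 10 nearest genes had a median of -0.06. These neighbours were chosen after their values were seen. The part of a regional change in the fall of the 3 zinc finger genes was not tested. An offset for each chromosome left ZNF24 at -1.51 (edgeR adjusted p = 1.18e-06), ZNF271 at -1.39 and ZNF397 at -1.01. That offset follows the median of the whole chromosome, so it cannot take out a change confined to a few Mb. Elsewhere on chromosome 18, ZNF532 rose, and its 6 neighbours within 1 Mb had a median of -0.16.

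**Figure D1:**
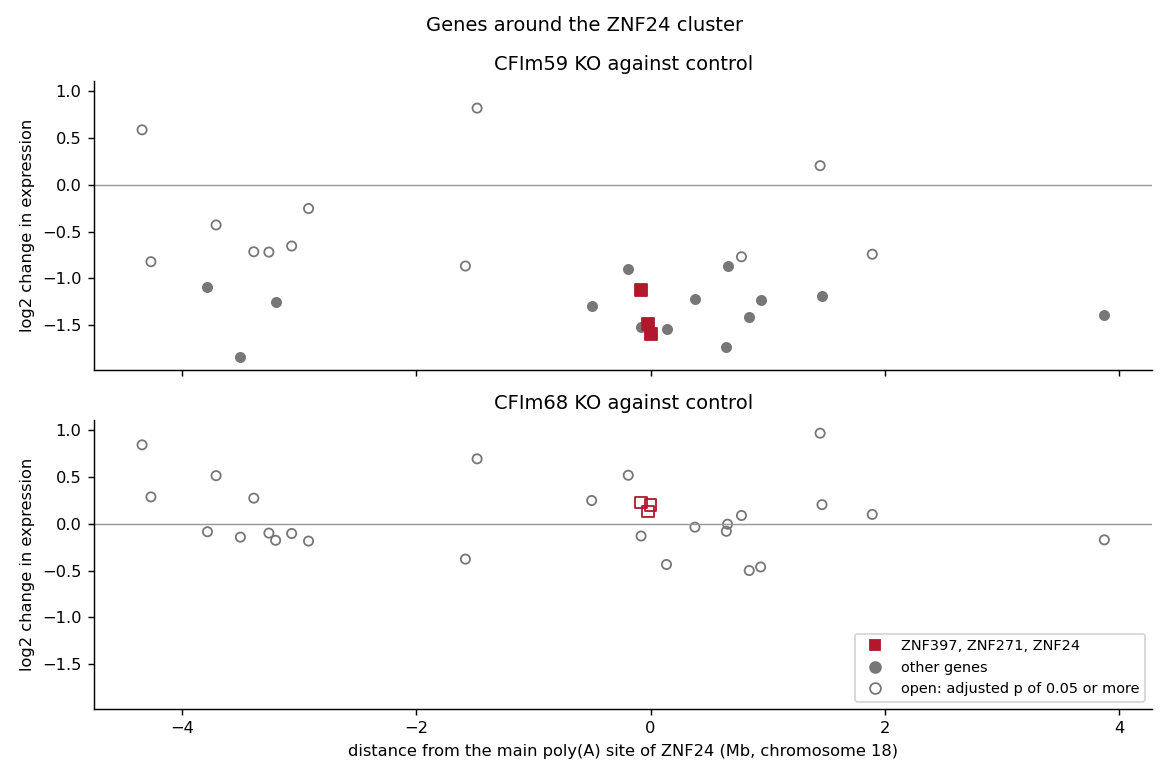
Each point is a gene near ZNF24, placed by its distance in Mb from the main ZNF24 site (x axis) and its log2 change in expression (y axis), for CFIm59 KO against control above and CFIm68 KO against control below. Red squares are ZNF397, ZNF271 and ZNF24 and grey circles are other genes, filled where the edgeR adjusted p was under 0.05; within 1 Mb of ZNF24 the grey points of the upper panel lie between -0.77 and -1.73, and no point of the lower panel is filled.

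ZNF22, a factor first described in tooth development, had 164 control reads, 8 and 69 in the CFIm59 KO lines, and 108 and 57 in the CFIm68 KO lines. The 2 CFIm59 KO lines thus differed widely, at 4.80 and 28.6 CPM, and the second of them lay between the CFIm68 KO lines. The edgeR test gave -1.78 ± 0.36 (SE; adjusted p = 0.000444), and DESeq2 gave an adjusted p of 0.615. ZNF503 stood at 216 CPM in the control, at 116 and 52.2 CPM in the CFIm59 KO lines, and at 109 and 174 CPM in the CFIm68 KO lines. Here all KO libraries were below the control and the 2 genotypes overlapped; the fall in CFIm59 KO was -1.38 (edgeR adjusted p = 0.000417) and was no longer called without CFIm59 KO line 2 (-0.89, adjusted p = 0.0574). ZNF330, a nucleolar protein, went from 98.1 CPM to 47.7 ± 2.89 (SD, n = 2), ZNF717 from 31.2 to 13.5 ± 2.12 and ZNF589 from 55.6 to 25.1 ± 8.38. Without CFIm59 KO line 2 ZNF717 had an adjusted p of 0.103, and without line 1 ZNF589 had 0.114. DESeq2 called none of ZNF22, ZNF397, ZNF503, ZNF330, ZNF717 and ZNF589 (adjusted p from 0.0607 to 0.615). Within 1 Mb, 3 of 8 other genes were lower beside ZNF503 and 10 of 39 beside ZNF589. Over all genes tested 6.87% were lower, a share that also covers genes with fewer reads than such neighbours. The remaining 2 genes that fell were ZNF593, from 53.8 CPM to 30 ± 0.854, and ZNF74, from 37.2 CPM to 19.9 ± 2.4.

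Chromosome 9 held 5 of the 12 genes that rose: ZNF483, ZNF510, ZNF883, ZNF618 and ZNF462. It carries 12 of the 182 genes, whose median log2 change was 0.77, while the median over its 606 genes tested was 0.39. Within 1 Mb, 2 of 8 other genes were higher beside ZNF483, 2 of 17 beside ZNF510, 1 of 15 beside ZNF883, 1 of 13 beside ZNF618 and none of 2 beside ZNF462. Over all genes tested 6.98% were higher, a share that also covers genes with fewer reads. With an offset for each chromosome ZNF483 rose by 2.45 (edgeR adjusted p = 8.25e-07) and ZNF510 by 1.77 (0.00442), but ZNF618 missed the threshold (0.93, adjusted p = 0.0853). ZNF232 lies on chromosome 17, where the median over all genes was 0.29, and with the offset it too missed the threshold (0.95, adjusted p = 0.0603). Of the zinc finger genes, 7 sit on X, 25 on chromosome 7 and 23 on chromosome 16. Chromosome 7 had no call against the control in CFIm59 KO. On chromosome 16, 3 of 23 were higher, beside 6.98% of all genes tested.

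Few zinc finger genes changed expression without CFIm68, as was so over all genes. Against the control 4 of 182 rose and 2 fell by edgeR. These shares of 2.20% and 1.10% lay near the background of 1.59% and 2.03% of all genes. The median log2 difference was 0.11 beside 0.02 over all genes. ZNF219, a partner of SOX9 in cartilage, stood at 11.3 CPM in the control, at 23.4 and 12.8 CPM in the CFIm59 KO lines, and at 33.0 and 24.0 CPM in the CFIm68 KO lines. ZNF747 stood at 14.3 CPM in the control, at 23.4 and 27.3 CPM in the CFIm59 KO lines, and at 29.5 and 36.8 CPM in the CFIm68 KO lines. ZNF189 stood at 16.2 CPM in the control, at 24.6 and 22.8 CPM in the CFIm59 KO lines, and at 37.2 and 35.5 CPM in the CFIm68 KO lines. In all 3 the control was the lowest library and the CFIm68 KO lines were the highest, with log2 changes of 1.34, 1.21 and 1.17 (edgeR adjusted p = 0.034, 0.034 and 0.033).

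ZNF644, a partner of the histone methyltransferase G9a, stood at 33.5 CPM in the control, at 43.8 and 37.7 CPM in the CFIm59 KO lines, and at 71.2 and 59 CPM in the CFIm68 KO lines. Its rise of 0.96 ± 0.29 (SE; edgeR adjusted p = 0.0444) is of interest because its poly(A) site use changed too. ZNF281, a regulator of pluripotency genes, stood at 36.5 CPM in the control, at 33.0 and 39.8 CPM in the CFIm59 KO lines, and at 15.6 and 20.4 CPM in the CFIm68 KO lines, which lay below all others. ZNF652, a DNA-binding partner of the corepressor CBFA2T3, stood at 85.0 CPM in the control, at 46.8 and 58.8 CPM in the CFIm59 KO lines, and at 49.0 and 40 CPM in the CFIm68 KO lines. ZNF281 fell by 1.03 and ZNF652 by 0.93 on the log2 scale (edgeR adjusted p = 0.0488 and 0.0309). Counting only last exon sites turned ZNF652 to 0.28 (adjusted p = 0.902). That value rests on few reads, since most ZNF652 reads stood at sites classed as intron. For the control library these were 216 of 226 intron and last exon reads (95.6%). Intron shares were 91.0% and 95.7% without CFIm59, and 92.1% and 86.5% without CFIm68. Last exon sites kept 10 control reads, 7 and 6 without CFIm59, and 11 and 12 without CFIm68.

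The 6 calls lay close to the threshold. DESeq2 called 0 higher and 0 lower, beside 15 zinc finger genes higher and 10 lower at an unadjusted p under 0.05 by edgeR; for these 6 genes its own filter left no adjusted p-value, so they were neither called nor refused. Without CFIm68 KO line 1 the edgeR adjusted p was 0.0759 for ZNF189, 0.162 for ZNF219, 0.164 for ZNF644 and 0.214 for ZNF281; 2 genes were then higher and 4 lower. Without CFIm68 KO line 2 it was 0.126 for ZNF747 and 0.135 for ZNF652. With an offset for each chromosome ZNF189 (0.058) and ZNF281 (0.0593) missed the threshold.

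**Figure D2:**
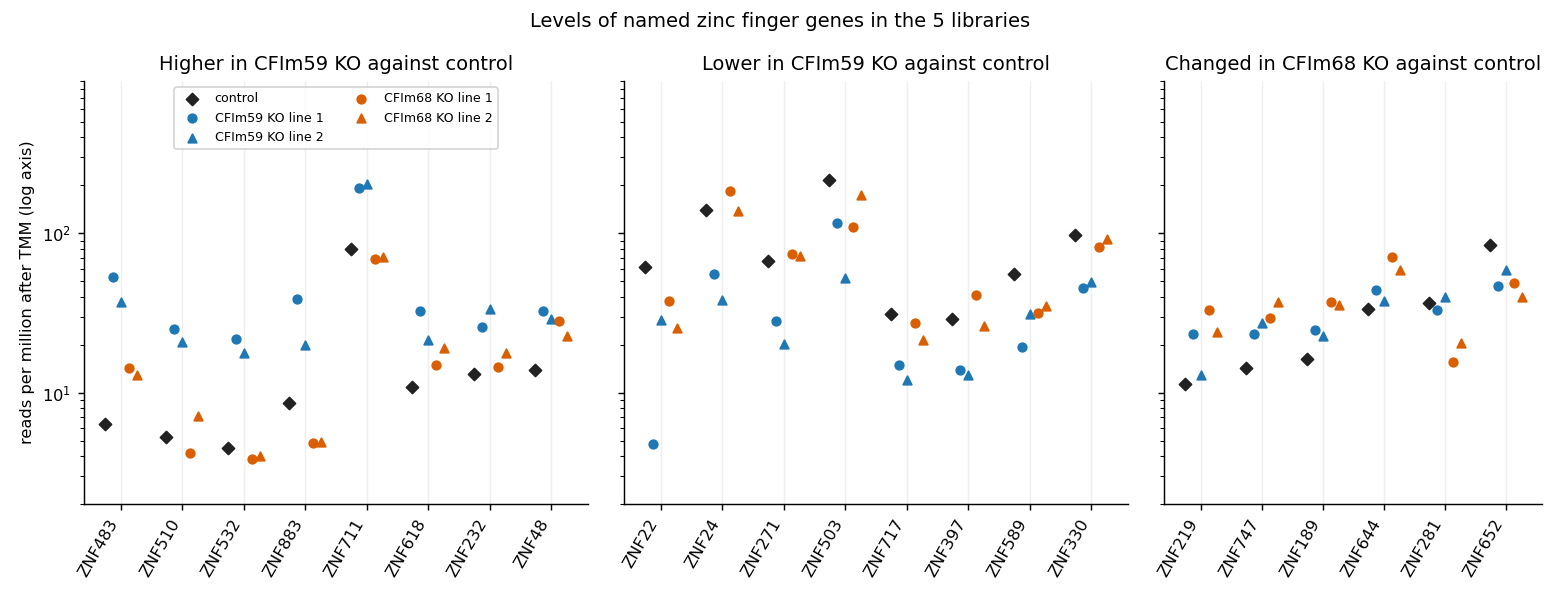
Each marker is 1 library, giving the level of a named gene in CPM with TMM library factors on a log axis; black diamonds are the control, blue marks the CFIm59 KO lines and orange the CFIm68 KO lines, with circles for line 1 and triangles for line 2. In ZNF483, ZNF711 and ZNF532 both blue markers lie above all others, in ZNF24 and ZNF271 both lie below all others, and the blue markers of ZNF22 lie far apart at 4.80 and 28.6.

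Set against each other, the knockouts differed in more genes: 19 of 182 were higher and 13 lower in the CFIm68 KO lines than in the CFIm59 KO lines, beside 9.46% and 10.3% of all genes. With 2 lines on each side, this comparison does not use the control. ZNF24 (1.80 ± 0.23 SE, edgeR adjusted p = 3.06e-08), ZNF271 (1.62, 1.38e-06) and ZNF397 (1.35, 0.000528) were higher in the CFIm68 KO lines, and ZNF883 (-2.53, 7.87e-07), ZNF532 (-2.31, 1.95e-05), ZNF510 (-2.04, 3.80e-05), ZNF483 (-1.71, 7.27e-06) and ZNF711 (-1.51, 2.12e-07) were lower. Of these 8, only ZNF397 lost its call under an alternative (without CFIm68 KO line 1, adjusted p = 0.0546).

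Other genes appeared in this comparison alone among the 3. ZNF276 stood at 35.7 CPM in the control, at 66.6 and 58.4 CPM in the CFIm59 KO lines, and at 17.4 and 27.1 CPM in the CFIm68 KO lines, so the control lay between the genotypes (-1.50, edgeR adjusted p = 1.03e-05). ZNF184, ZNF133 and ZNF273 showed the opposite order, with means of 5.62 ± 2.01, 8.55 ± 0.208 and 7.22 ± 0.832 CPM in the CFIm59 KO lines and 15.2 ± 2.62, 20.4 ± 3.10 and 16.3 ± 0.495 in the CFIm68 KO lines (SD, n = 2). Their controls stood at 11.3, 16.5 and 13.2 CPM. Some genes within 1 Mb differed as well: beside ZNF133, 6 of 13 were higher in the CFIm68 KO lines than in the CFIm59 KO lines (median 0.64) and 7 of 13 were lower in CFIm59 KO than in the control (median -1.04). Beside ZNF184, 7 of 22 were higher between the knockouts (median 0.74), and beside ZNF273 the 3 neighbours had a median of -0.45 with no call. Over all genes tested, 9.46% were higher between the knockouts and 6.87% were lower in CFIm59 KO than in the control. The part of these regions in the differences was not tested. None of the 3 passed with DESeq2 (adjusted p from 0.166 to 0.268). Without CFIm68 KO line 1 the edgeR adjusted p was 0.0970 for ZNF184, 0.0693 for ZNF133 and 0.0707 for ZNF273; without CFIm59 KO line 1 it was 0.106 for ZNF184, and without line 2 it was 0.0516 for ZNF133 and 0.160 for ZNF273. Leaving out CFIm59 KO line 2 left 9 higher and 7 lower genes, and leaving out CFIm68 KO line 1 left 12 and 8.

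Poly(A) site use was tested as the ratio of the proximal to the distal of the 2 sites with most reads in a gene. It could be tested in 70 of the 182 zinc finger genes; the other 112 lacked a pair with 20 or more reads together and 5 or more at each site per library on average. In 60 of the 70 both sites were classed as last exon. The median proximal share was 37.2% in the control, 33.6% and 36.0% in the CFIm59 KO lines and 48.3% and 44.2% in the CFIm68 KO lines, beside 34.4%, 28.6%, 29.2%, 50% and 47.1% over all 5869 genes tested.

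Without CFIm68, 12 of 70 pairs changed toward the proximal site and 2 toward the distal one, beside 25.0% and 3.10% of all pairs. The share of 17.1% was below that background, and the median log2 change of the ratio was 0.38 beside 0.61. The distance between sites also differed: its median was 849 bases in the zinc finger pairs and 1375 in all pairs. Among last exon pairs, 1 of 17 zinc finger pairs under 250 bases changed toward the proximal site, beside 4.56% of all such pairs. The counts were 4 of 21 from 250 to under 1000 bases (28.6% of all), 4 of 12 from 1000 to under 4000 bases (45.6%) and 2 of 10 at 4000 bases or more (27.2%). Each class holds few zinc finger pairs, and the difference from other genes was not tested.

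**Figure D3:**
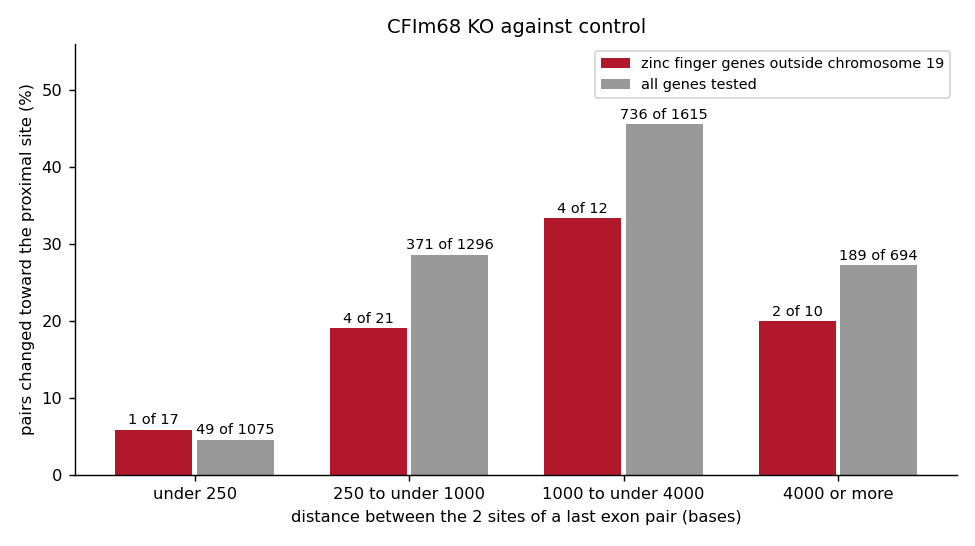
Bars give the percent of last exon pairs that changed toward the proximal site in the CFIm68 KO lines against the control (edgeR adjusted p under 0.05), by the distance between the 2 sites in bases, for the zinc finger genes in red and all genes tested in grey, with the counts above. Both sets are lowest under 250 bases and highest from 1000 to under 4000 bases, at 33.3% and 45.6%.

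ZNF503, a developmental repressor on chromosome 10, gave the clearest change. Its proximal site at 77158020 took 62 of 503 reads of the pair in the control (12.3%, Wilson 95% interval 9.74 to 15.5), 13 of 179 and 13 of 112 in the CFIm59 KO lines (7.26% and 11.6%), and 158 of 281 and 164 of 347 in the CFIm68 KO lines (56.2% and 47.3%). The distal site at 77157607 lies 413 bases further on the minus strand. Both CFIm68 KO lines were far above the other libraries, with a log2 change of 2.92 ± 0.40 (SE; edgeR adjusted p = 1.19e-07), which passed under all alternatives run.

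ZNF516, an activator of brown fat genes on chromosome 18, used its proximal site at 74074230 in 1 of 36 control reads (2.78%, interval 0.492 to 14.2) and in 1 of 30 and 4 of 36 in the CFIm59 KO lines. In the CFIm68 KO lines it took 23 of 45 and 12 of 28 reads, a mean of 47.0% ± 5.84 (SD, n = 2). ZNF592, a ZMYND8 partner on chromosome 15, went from 20 of 47 reads (42.6%) in the control, and 55.8% and 57.1% in the CFIm59 KO lines, to 74.5% and 89.6% in the CFIm68 KO lines. In both genes the CFIm68 KO lines were above every other library, with adjusted p = 0.000296 and 0.00157 by edgeR, and both passed under all alternatives run.

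ZNF326, a subunit of a complex that joins transcript elongation to splicing, had 6 last exon sites with 20 or more reads, spread over 7648 bases of chromosome 1. The first site took 19.4% of its control reads, 6.67% and 10.9% in the CFIm59 KO lines, and 55.3% and 43.0% in the CFIm68 KO lines. The last site took 8.33% in the control, 10.0% and 8.42% in the CFIm59 KO lines, and 0.457% and 0% in the CFIm68 KO lines. The first site thus gained and the far sites lost reads in both CFIm68 KO lines. The site at 90499144, 5705 bases after the first, had 18 control reads, 25 and 31 in the CFIm59 KO lines, and 0 and 1 in the CFIm68 KO lines. In the pair tested, 342 bases apart, the share was 36.8% in the control, 23.8% ± 2.17 without CFIm59 and 59.4% ± 9.46 without CFIm68 (SD, n = 2; edgeR adjusted p = 0.0171, and 0.163 without CFIm68 KO line 1).

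ZNF207 also had several last exon sites, on chromosome 17. Its first site at 30696984 took 23.8% of its control reads, 14.0% and 16.7% in the CFIm59 KO lines and 45.4% and 37.7% in the CFIm68 KO lines. A site 3783 bases on had 8 control reads, 30 and 39 in the CFIm59 KO lines and 0 and 2 in the CFIm68 KO lines. The last site, 11919 bases on, did not show such a loss: it took 8.44% of control reads, 8.67% and 4.79% in the CFIm59 KO lines, and 10.7% and 7.01% in the CFIm68 KO lines. Whether all these sites end the same last exon was not examined. The tested pair, 371 bases apart, passed against the control (1.30 ± 0.41 SE, edgeR adjusted p = 0.0121), but not without CFIm68 KO line 1 (adjusted p = 0.0854) nor with the outermost pair of sites (0.301). ZNF24, which fell in expression without CFIm59, changed site use without CFIm68, in a pair only 134 bases apart, from 67 of 220 reads (30.5%) in the control to 60.2% and 45.3%, with 17.6% and 25.9% in the CFIm59 KO lines. Its adjusted p was 0.00708, and 0.0994 without CFIm68 KO line 1 or 0.282 with the most distant pair.

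ZNF330 had 3 last exon sites with 20 or more reads on chromosome 4, and the 2 with most reads, which were tested, lie 11902 bases apart. The proximal one took 40 of 183 control reads of the pair (21.9%), 22.9% and 32.3% in the CFIm59 KO lines and 44.1% and 46.2% in the CFIm68 KO lines (edgeR adjusted p = 0.00308). The third site, 12114 bases after the first, took 28.7% of all control reads of the gene, 34.2% and 19.2% in the CFIm59 KO lines and 11.5% and 5.29% in the CFIm68 KO lines. All ZNF330 sites with reads ran from 142142530 to 142155848, and the proximal site of the pair was at 142143734. Whether the sites of this pair end the same last exon was not examined. ZNF397 paired a proximal site classed as last exon with a distal site classed as intron, 5705 bases on. The proximal site had 0 of 62 reads in the control, which allows a share of up to 4.84%. It had 1 of 19 and 2 of 24 in the CFIm59 KO lines, and 15 of 78 and 9 of 42 in the CFIm68 KO lines (edgeR adjusted p = 0.000577). ZNF746, known as PARIS, a substrate of the ubiquitin ligase parkin, went from 1.94% of the reads of its pair to 10.8% and 14.2% (adjusted p = 0.0144). ZNF397 passed under all alternatives that could be fitted. Last exon sites only was not among them, since its last exon reads were too few for a pair. Without CFIm68 KO line 2 ZNF746 had an adjusted p of 0.0566. ZNF703 also passed, from 11.1% of 911 reads in the control to 21.6% ± 0.111 without CFIm68, with 5.57% and 13.6% in the CFIm59 KO lines (adjusted p = 0.0245), and ZNF620 passed on few reads (5 of 24 in the control, 27 of 37 and 11 of 25 without CFIm68, adjusted p = 0.029).

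ZNF800 and ZNF496 went the other way without CFIm68. ZNF800 used its proximal site in 23 of 31 control reads (74.2%, interval 56.8 to 86.3), in 55.0% and 84.0% in the CFIm59 KO lines, and in 30% and 46.2% in the CFIm68 KO lines. Its sites lie 23630 bases apart, with sites classed as intron between them, 310 and 20525 bases after the proximal one. Whether both sites end the same last exon was not examined. ZNF496, a SCAN domain partner of the methyltransferase NSD1, used its proximal site in 36 of 49 control reads (73.5%), in 68.6% and 73.2% in the CFIm59 KO lines, and in 40% and 48.6% in the CFIm68 KO lines. In both, the CFIm68 KO lines were the 2 lowest libraries (edgeR adjusted p = 0.0296 and 0.0326). Without CFIm68 KO line 1 neither passed (adjusted p = 0.148 and 0.13).

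Of the 14 calls in CFIm68 KO, DESeq2 made 5 toward the proximal site and 0 toward the distal one. The genes that it did not call among those named were ZNF207, ZNF24, ZNF326, ZNF330, ZNF746, ZNF496 and ZNF800 (DESeq2 adjusted p from 0.118 to 0.262). ZNF703 and ZNF620 were not among its calls either, and their values under the alternatives are not given here. Without CFIm68 KO line 1, edgeR called 8 toward the proximal site and 1 toward the distal one.

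Without CFIm59, 0 of 70 pairs changed toward the proximal site and 3 toward the distal one by edgeR, beside 0.988% and 5.06% of all pairs. At an unadjusted p under 0.05 there were 4 and 5, and DESeq2 called 0 and 1. Leaving out CFIm68 KO line 1 or line 2 gave 1 call toward the proximal site. The 3 genes were ZNF721, ZNF623 and ZNF644. ZNF721 on chromosome 4 used its proximal site at 438021 in 46 of 81 control reads (56.8%, interval 45.9 to 67.0), in 3 of 32 and 2 of 55 in the CFIm59 KO lines (9.38% and 3.64%), and in 33 of 82 and 25 of 68 in the CFIm68 KO lines (40.2% and 36.8%). The CFIm59 KO lines were far below the rest, with a log2 change of -4.36 ± 0.68 (SE; edgeR adjusted p = 3.31e-05) that passed under all alternatives run. The CFIm68 KO lines were also below the control, but this difference did not pass (adjusted p = 0.116).

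ZNF623 of chromosome 8 used its proximal site in 46 of 77 control reads (59.7%), in 25% and 24.3% in the CFIm59 KO lines, and in 76.2% and 69.8% in the CFIm68 KO lines. The CFIm59 KO lines lay below the control (-2.18 ± 0.51 SE and adjusted p = 0.0052 against the control by edgeR, 0.22 by DESeq2). The CFIm68 KO lines lay above the control, but this difference did not pass (edgeR adjusted p = 0.28). The sites lie 4241 bases apart in ZNF721 and 4045 in ZNF623.

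ZNF644 passed against the control in each knockout, with opposite directions; both comparisons use the same control library. Its proximal site at 91382056 on chromosome 1 took 5 of 27 reads of the pair in the control (18.5%, interval 8.18 to 36.7). It took 0 of 24 and 0 of 29 in the CFIm59 KO lines, which allows shares of up to 12.5% and 10.3%, and 68 of 105 and 43 of 68 in the CFIm68 KO lines (64.8% and 63.2%). The CFIm68 KO lines were far above the control and the CFIm59 KO lines were at 0. The edgeR adjusted p was 0.00164 in CFIm68 KO and 0.0366 in CFIm59 KO; the latter rests on 5 control reads and rose to 0.134 without CFIm59 KO line 1 and 0.185 without line 2. Between the knockouts the adjusted p was 9.24e-10.

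The 7 last exon sites of ZNF644 with 20 or more reads lie within 1198 bases, and their order shows where the reads went. The site 187 bases after the first had 2 reads in the control, 0 in each CFIm59 KO line and 11 in each CFIm68 KO line. The site 859 bases on, the distal one of the pair, took 24.7% of the gene's control reads, 32.9% and 31.9% in the CFIm59 KO lines and 18% and 18.8% in the CFIm68 KO lines. The last site took 7.87% in the control, 8.22% and 8.79% in the CFIm59 KO lines and 0.976% and 2.26% in the CFIm68 KO lines. By summed difference in proximal share over the 5 libraries, the genes most like ZNF644 among the 70 were ZNF503 (49.6 percentage points), ZNF516 (64.2) and ZNF326 (77.7).

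**Figure D4:**
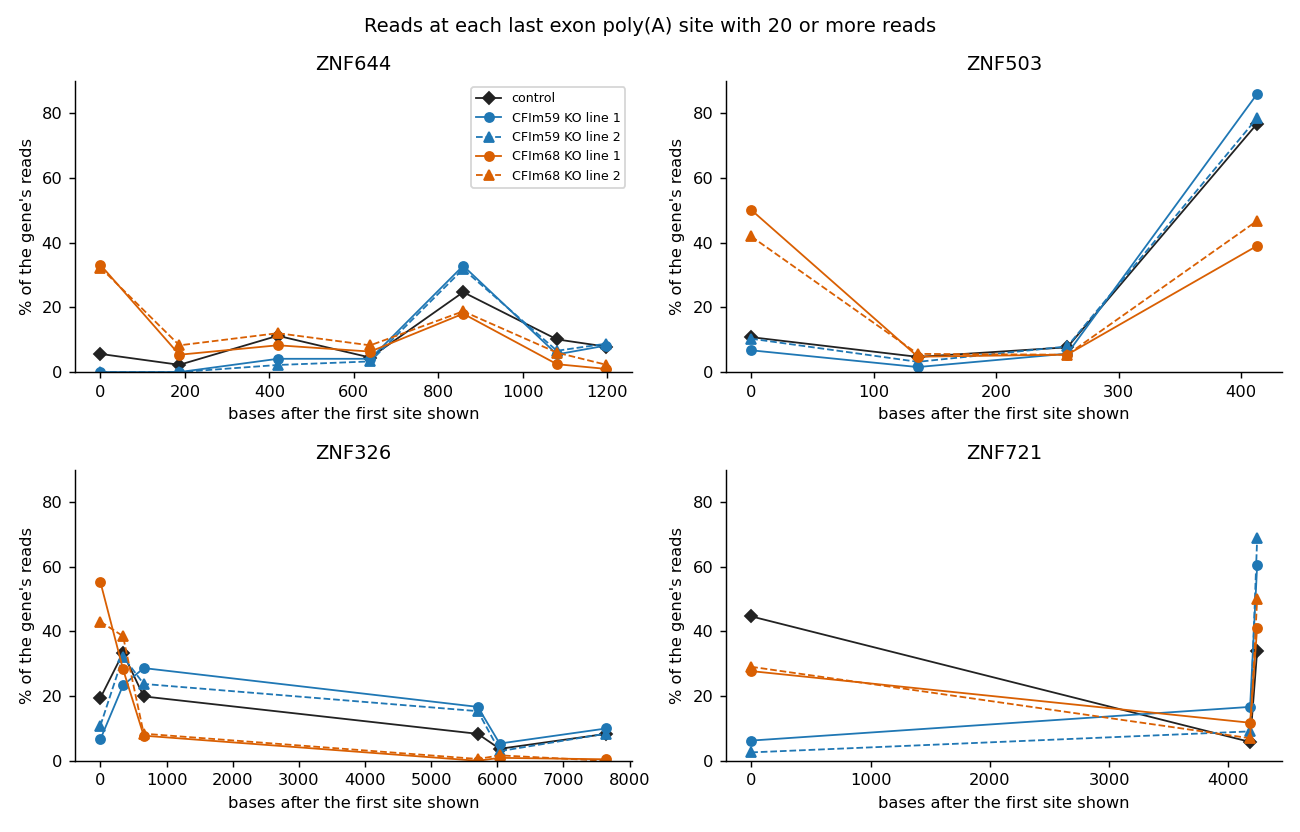
For ZNF644, ZNF503, ZNF326 and ZNF721, each marker gives the percent of the gene's reads in 1 library at a last exon site, by its distance in bases after the first site shown; black is the control, blue the CFIm59 KO lines, orange the CFIm68 KO lines, and lines only join the markers of a library. The orange markers are highest at the first site of ZNF644, ZNF503 and ZNF326, and in ZNF721 the blue ones are lowest at the first site, at 6.25% and 2.60%.

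Between the knockouts, 17 of 70 pairs were shifted toward the proximal site in the CFIm68 KO lines and 4 toward the distal one, beside 40.5% and 6.08% of all pairs; the median log2 change was 0.57 beside 0.89. ZNF143, an activator of small nuclear RNA genes, used its proximal site in 34 of 44 control reads (77.3%), in 4 of 10 and 10 of 23 in the CFIm59 KO lines (40% and 43.5%), and in 76.3% and 86.4% in the CFIm68 KO lines. The CFIm59 KO lines were the lowest (edgeR adjusted p = 0.00665 between the knockouts, 0.107 against the control, and 0.0657 between the knockouts without CFIm59 KO line 2). ZNF292, a neurodevelopmental gene, had 25.8% ± 1.18 in the CFIm59 KO lines and 63.9% ± 19.6 in the CFIm68 KO lines (SD, n = 2; adjusted p = 0.0422), on 9 to 33 reads a library. It lost the call without CFIm59 KO line 1 (0.0763), without CFIm59 KO line 2 (0.165) and without CFIm68 KO line 2 (0.203). ZNF678 went the other way, with 66.7% in the control, 82.1% and 81.2% in the CFIm59 KO lines and 44.2% and 38.1% in the CFIm68 KO lines (adjusted p = 0.000375). ZNF138 had 22.2% ± 6.09 in the CFIm59 KO lines and 8.05% ± 2.55 in the CFIm68 KO lines (adjusted p = 0.0323; 0.190 without CFIm59 KO line 1 and 0.140 without CFIm68 KO line 2). With the outermost pair of sites ZNF678 moved to 0.04 and ZNF138 turned to 2.43, so their direction depends on which sites are paired. ZNF800 and ZNF496 passed here too, but not without CFIm59 KO line 2 (adjusted p = 0.392 and 0.109) nor without CFIm68 KO line 1 (0.119 and 0.0995); either line left out gave 2 distal calls in place of 4.

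**Figure D5:**
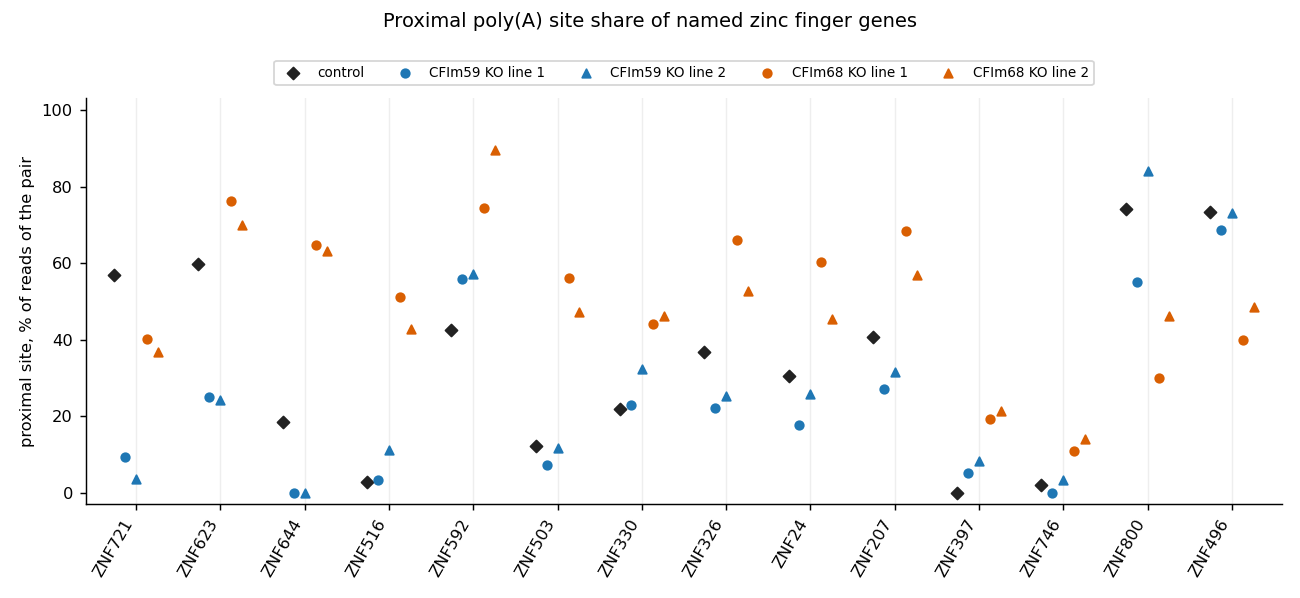
Each marker is the percent of the reads of a pair at the proximal site in 1 library, with the control in black, the CFIm59 KO lines in blue and the CFIm68 KO lines in orange (circle line 1, triangle line 2). The blue markers are far below the others in ZNF721 and ZNF623, the orange ones are above all others from ZNF644 to ZNF746, and in ZNF800 and ZNF496 the orange ones are lowest.

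Reads at sites classed as intron made up 10.8% of the reads of the zinc finger genes in the control, 11.2% and 10.9% in the CFIm59 KO lines and 11.1% and 9.33% in the CFIm68 KO lines. Over all nuclear genes these shares were 9.22%, 9.88%, 10.8%, 9.45% and 7.73%. Intron against last exon reads could be tested in 43 of the 182 genes. Against the control 0 changed in either direction in either knockout by edgeR, beside 0.884% toward intron and 0.718% toward last exon sites of all 3621 genes tested in CFIm59 KO, and 1.02% and 1.24% in CFIm68 KO. At an unadjusted p under 0.05 there were 3 toward intron sites and 3 toward last exon sites in CFIm59 KO, and 2 and 5 in CFIm68 KO; DESeq2 also called 0 in each. Without CFIm59 KO line 1 there was 1 call toward intron sites in CFIm59 KO.

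Between the knockouts 1 gene had a higher intron share in the CFIm68 KO lines and 4 a lower one, beside 4.42% and 7.37% of all genes. ZNF644 had an intron share of 27.3% in the control (24 of 88 reads), 43.8% and 38.6% in the CFIm59 KO lines and 19% and 9.23% in the CFIm68 KO lines, with no overlap (edgeR adjusted p = 0.000106; 0.0675 without CFIm68 KO line 2). ZNF678, the 1 gene with a higher share, had 21.7% in the control, 10.5% ± 7.49 without CFIm59 and 31.4% ± 3.73 without CFIm68 (SD, n = 2; adjusted p = 0.00282). ZNF133, ZNF81 and ZNF862 had higher means in the CFIm59 KO lines, at 36.9% ± 1.68, 91.3% ± 4 and 70.8% ± 41.2, than in the CFIm68 KO lines, at 11% ± 1.80, 64.8% ± 2.62 and 31.9% ± 9.82 (adjusted p = 0.0317, 0.0445 and 0.0269). The ZNF862 lines without CFIm59 gave 5 of 12 and 13 of 13 reads. Leaving out 1 line at a time ended the call of ZNF133 and ZNF81 each time (adjusted p from 0.113 to 0.261 and from 0.120 to 0.223). It ended that of ZNF862 without CFIm59 KO line 2 (0.846), CFIm68 KO line 1 (0.242) or line 2 (0.406), and that of ZNF678 without the same 3 lines (0.320, 0.119 and 0.124).

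The partners through which KRAB zinc finger proteins silence chromatin were looked at as a list of 17 genes, all tested for expression. In CFIm59 KO 3 rose by edgeR, beside 6.98% of all genes, with a median log2 change of 0.32. In CFIm68 KO 1 rose, beside 1.59% of all genes, with a median of -0.00480. ATF7IP, the partner of the histone methyltransferase SETDB1, rose in both, from 18.4 CPM in the control to 51.6 and 41.4 in the CFIm59 KO lines and 46.9 and 43.1 in the CFIm68 KO lines. UHRF1, which reads methylated DNA, went from 76.7 to 182 ± 30.3 CPM and CHD3, a remodeller, from 58.7 to 131 ± 0.837 CPM in the CFIm59 KO lines (SD, n = 2). The scaffold TRIM28 stood at 343 CPM in the control, at 609 and 477 in the CFIm59 KO lines and at 351 and 448 in the CFIm68 KO lines, which did not pass (edgeR adjusted p = 0.0665 and 0.716).

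Of the 12 list genes with a testable pair of sites, 3 changed toward the distal site in CFIm59 KO and 4 toward the proximal site in CFIm68 KO, beside 5.06% and 25.0% of all pairs; the 4 of 12 lies near its background. CBX3, a heterochromatin protein, used its proximal site in 16.7% of reads in the control, 5.95% ± 0.713 without CFIm59 and 50.9% ± 1.13 without CFIm68 (edgeR adjusted p = 0.0069 and 1.31e-06). ATF7IP went from 60.0% to 16.5% ± 6.75 and to 95.7% ± 0.739 (adjusted p = 0.0133 and 0.000631). FAM208A, the HUSH subunit also called TASOR, went from 46.2% to 93.5% ± 2.02 in CFIm68 KO (adjusted p = 3.85e-09), and the remodeller SMARCAD1 from 50% to 84.9% ± 9.17. Both CBX3 and ATF7IP had the CFIm59 KO lines below and the CFIm68 KO lines above the control.

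Zinc finger genes of chromosome 19, taken by symbol without the minimum of 50 reads and tested in the same fit, gave 51 higher and 1 lower of 166 in CFIm59 KO with a median log2 change of 1.19, against 12 and 10 of 182 with a median of 0.12 outside it. In CFIm68 KO 2 of them rose and 1 fell. The difference between the 2 sets was not tested. In other families, 2 of 38 ZBTB genes rose in CFIm59 KO and 2 fell in CFIm68 KO, 1 of 19 ZKSCAN and ZSCAN genes fell in CFIm59 KO, and 1 of 12 KLF genes rose and 1 fell in CFIm59 KO and 1 fell in CFIm68 KO. Of all genes, 6.98% rose and 6.87% fell in CFIm59 KO and 2.03% fell in CFIm68 KO. In site use without CFIm68, 4 of 12 ZBTB pairs and 3 of 5 KLF pairs changed toward the proximal site, beside 25.0% of all pairs, which the ZBTB count lies near; neither was tested against it.

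In CFIm68 KO against the control, ZNF644 passed the test of expression and that of site use, with more reads and a higher proximal share.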

How the data were processed

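Poly(A) site sequencing of total RNA was read in 5 libraries (1 control, 2 CFIm59 KO lines, 2 CFIm68 KO lines). The authors deposited whole-number counts of reads per poly(A) site, each with a gene, a class (last exon, intron, upstream exon) and an hg19 position; TopHat2 2.1.0 and deepTools 2.4 are named in the submitters' processing notes, and whether positions count from 0 or 1 is not stated. Of 290072 entries, 17824 repeated listings of a site were dropped. Reads were summed per gene and tested with edgeR 4.0.16 (TMM, filterByExpr, quasi-likelihood, Benjamini-Hochberg over all genes tested, threshold 0.05). The same model tested proximal against distal reads of the 2 sites with most reads (mean of 20 or more together and 5 or more each), and intron against last exon reads, with a term per library. DESeq2 1.42.0, other filters and scalings, other site pairs and leaving out each line were alternatives. The tests were tried on simulated counts with known changes in CFIm68 KO. They recovered 35% of 2-fold and 96% of 4-fold expression changes, and 44% of 4-fold and 73% of 8-fold changes in site ratio. Of the simulated calls, 5.76% were false for expression and 5.65% for site use. The simulated counts had the same spread in all genes, and the control varied like the knockout lines. Expression changes were placed only in genes with a mean of 20 or more reads. These rates therefore do not cover spread that differs between genes, or a control that varies otherwise. Members and lists were chosen with earlier results of these data known. Named genes were those with the largest changes past the threshold, by direction, with a mean of 20 or more reads for expression or 30 or more for site use and both lines on 1 side of the control; ZNF462, ZNF10, ZNF629, ZNF771, ZNF593, ZNF74, ZNF703 and ZNF620 fell outside this or were added after their values were seen. Total counts of 1673687 to 2924266 reads per library leave a median of 206 reads per member over all libraries. Protein features and the sequence around poly(A) sites were not analysed here.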

Additional observations from a re-analysis of the deposited data

How the results depend on the processing

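Of 64 results for named genes, 22 kept their call under all alternatives that gave a value, 41 lost it under 1 or more, and 3 reversed: ZNF652 expression moved to 0.28 with last exon sites only, and the outermost pair of sites gave 2.43 for ZNF138 and 0.038 for ZNF678. The cause was not tested. With DESeq2 the expression counts were 2 higher and 2 lower in CFIm59 KO (12 and 10 by edgeR), 0 and 0 in CFIm68 KO (4 and 2), and 5 and 7 between the knockouts (19 and 13). Its site counts were 1 distal in CFIm59 KO (3 by edgeR), 5 proximal and 0 distal in CFIm68 KO (12 and 2), and 11 and 1 between the knockouts (17 and 4), and its intron counts between the knockouts were 0 and 0 (1 and 4). Lower genes in CFIm68 KO numbered 1 with last exon sites only, 0 with a mean of 20 or more reads and 1 with an offset per chromosome. Asking for 100 reads together and 20 each left 8 pairs in site use, fewer than tested before: 0 distal in CFIm59 KO, 6 proximal and 0 distal in CFIm68 KO and between the knockouts, and 0 to intron and 1 to last exon sites. Asking for 1 read or more gave 7 proximal and 1 distal in CFIm68 KO, the outermost pair gave 2 distal between the knockouts, and fitting only the groups compared gave 1 proximal in CFIm59 KO. Leaving out 1 line gave 8 to 14 higher and 5 to 11 lower genes in CFIm59 KO, 2 to 6 and 2 to 4 in CFIm68 KO, and 9 to 15 and 7 to 15 between the knockouts. It gave 0 to 1 proximal and 2 to 3 distal changes in CFIm59 KO, 8 to 12 and 1 to 3 in CFIm68 KO, and 13 to 17 and 2 to 4 between them, with 0 to 1 toward intron sites in CFIm59 KO, and 0 to 1 toward intron and 0 to 3 toward last exon sites between the knockouts. Line numbers do not pair the lines, which are separate cell lines (correlation of line differences 0.00663 over 10970 genes); with the replicate block, possible only between the knockouts, 2 genes moved to last exon sites in place of 4. Site use was tested in 70 of 182 genes at these depths.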
